A study of Mus musculus with 12 samples.

Results

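The genes described here encode the enzymes and transporters that carry glucose to lactate (glycolysis, 25 genes) and those of the pentose phosphate pathway, which makes NADPH and ribose 5-phosphate (7 genes). The 32 genes were chosen by symbol, from general knowledge of the pathways but with earlier results of these data known. They were taken out of 51826 gene identifiers in the forelimb table and 55401 in the culture tables. All 32 passed the filter on low counts in both data sets, in which 19987 and 14030 genes were tested.

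RNA was sequenced from forelimbs of mouse embryos at embryonic day E12.5 and from osteoclast cultures, to examine what deletion of Impdh2 does to gene expression. The forelimbs were WT or Prx-cKO, in which Impdh2 was deleted in limb mesenchymal progenitors only, while muscle, blood, vessel and skin cells of the limb are not of that lineage. The cultures were bone marrow cells of WT or LysM-cKO mice, in which the deletion was in the myeloid lineage. Marrow was first kept for 3 days in medium with M-CSF, the macrophage growth factor, at about 20 ng/ml from L929 supernatant. By the labels, the cells were then replated and given RANKL, the cytokine that induces osteoclasts, at 40 ng/ml. Both genotypes were sampled under the titles R40D3 and R0D3. The labels give all 8 culture samples the same treatment and do not spell these titles out, so they are used as names. Whether the R0D3 cultures were in fact given RANKL is therefore not settled here. Each of the 6 groups held 2 libraries, and nothing in the labels says whether these came from separate animals or cultures. Every p-value thus sets a difference against the spread between libraries, which may be technical. In the cultures that spread was estimated from all 8 libraries together. The labels give no allele names, sex or litter.

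Glycolysis splits glucose into pyruvate in the cytosol with a small yield of ATP, and lactate dehydrogenase then reduces pyruvate to lactate or, in the other direction, oxidises lactate. The pentose phosphate pathway branches off at glucose 6-phosphate. Its oxidative steps give NADPH, and its non-oxidative steps exchange sugar phosphates with glycolysis. Ribose 5-phosphate from this branch is the sugar of every purine nucleotide, including the guanine nucleotides whose synthesis depends on Impdh2, the enzyme that converts IMP to XMP. Embryonic limb mesenchyme is known as a strongly glycolytic tissue, and osteoclasts are known to gain many mitochondria as they form.

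Total counts were 28892215 to 69466572 per forelimb library and 16009146 to 19221865 per culture library. Levels are in CPM, counts scaled to the library size after TMM. Impdh2 was at 260 and 272 CPM in WT forelimb and 170 and 199 in Prx-cKO (log2 fold change −0.53, edgeR adjusted p 0.443). It fell from 25.7 and 27.7 CPM to 7.71 and 8.37 in R40D3 cultures (adjusted p 0.0386), and from 22.3 and 28.2 to 7.35 and 7.03 in R0D3 cultures (adjusted p 0.0324). The limb libraries held summed CPM of 1659 to 2268 over 12 limb mesenchyme markers, led by Prrx1 and Pdgfra. The cultures held 23332 to 51020 CPM over 14 myeloid markers. Of 17 osteoclast markers, all were called higher at R40D3 than at R0D3 in each genotype. Their sum was 1294 to 1472 CPM at R0D3, against 28535 and 41586 in WT and 14824 and 27091 in LysM-cKO at R40D3. Summed CPM of 15 stromal fibroblast markers was 853 and 1017 in LysM-cKO replicate 2 (R40D3 and R0D3) and 2260 to 2850 in the other 6 culture libraries.

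At least 1 enzyme cannot be read at its own level. Gapdh, glyceraldehyde 3-phosphate dehydrogenase, has 78 annotated look-alike genes, nearly all processed pseudogenes, whose transcripts match it at 95% identity or more over at least 200 bases. Those present in the tables held 57.9% to 74.1% of the reads assigned to Gapdh or a look-alike in the forelimb and 80.2% to 86.5% in the cultures. Gapdh was listed at 528 to 1442 CPM in the forelimb and at only 3.78 to 6.97 CPM in the cultures. With the look-alike reads added, it was at 1929 to 3831 CPM in the forelimb and 19.8 to 38.4 CPM in the cultures. How reads with several matches were counted is not given in the sources used here, so no level of Gapdh is compared between limb and cultures. For Eno1 the look-alike share was 2.35% to 11.9% in the forelimb and 8.77% to 10.9% in the cultures, and for Pgam1 4.69% to 10.3% and 2.50% to 4.33%. Pgk1 had 1.119% to 6.23% and 1.78% to 3.13%, and the other members at most 3.70%. Pgk1 has look-alikes 100% identical to it over 1255 and 1252 bases, and Pgam1 has 1 over 765 bases. Reads left out of every row for having several matches would not show in these shares. The shares thus need not measure any reads that these genes lost. Pfkp overlaps Pitrm1, Rpe overlaps Kansl1l and Pkm overlaps Gm49759, so the counts of these 3 are uncertain where exons are shared. The cells that produced a transcript are also not known in bulk RNA: fewer cells of a type and less RNA per cell cannot be told apart.

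Forelimb levels were compared between Prx-cKO and WT. Most glycolysis genes were at a higher level in both Prx-cKO libraries than in both WT libraries, by a modest factor, and none passed the test over all genes. Of the 32 members, edgeR called 0, against 0% of the 19987 genes tested. At an unadjusted p under 0.05 there were 9 members, 7 higher and 2 lower, where 10.5% of all genes were under that value. The groups did not overlap for 20 members with Prx-cKO higher and for 3 with Prx-cKO lower. Over all genes these shares were 22.2% and 21%. The median log2 fold change was 0.34 over the 25 glycolysis genes (18 higher, 7 lower) and 0.37 over the 7 pentose phosphate genes (5 higher, 2 lower), against −0.03 over all genes tested. DESeq2 called 2 members, Aldoa (adjusted p 0.0336) and Gapdh (adjusted p 0.0374), where it called 1.97% of all genes.

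**Figure D1:**
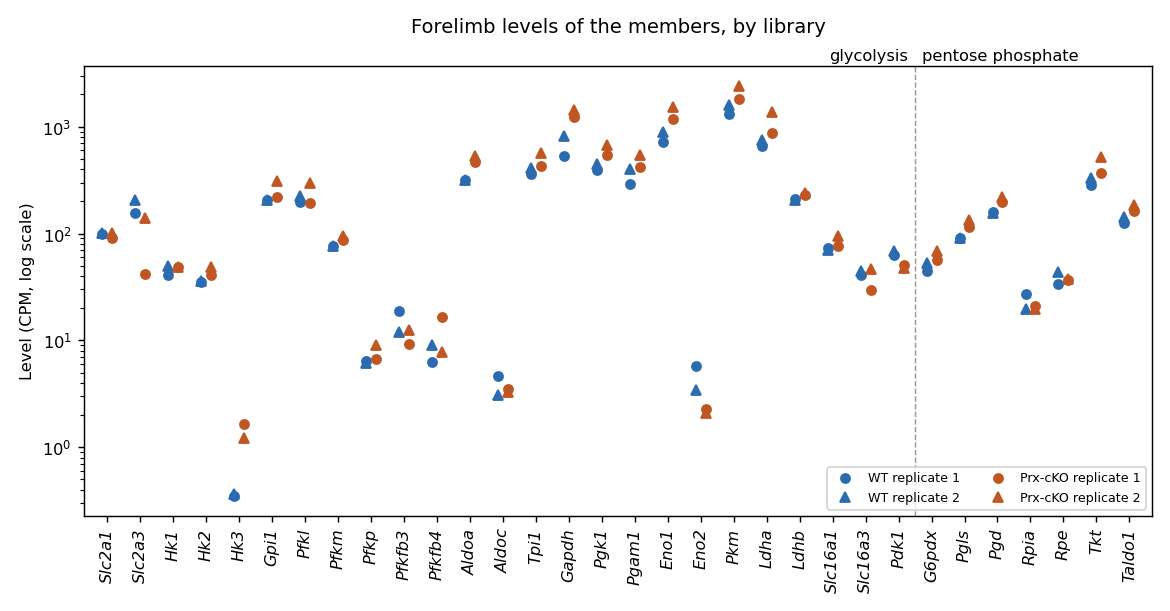
Level of each of the 32 members in the 4 forelimb libraries, in CPM on a log axis, with WT in blue and Prx-cKO in orange, circles for replicate 1 and triangles for replicate 2. From Gapdh to Ldhb the Prx-cKO points lie above the WT points for every gene but Eno2, and Slc2a3 has 1 low Prx-cKO point at 42.1 CPM.

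In the payoff phase of glycolysis, from Gapdh to pyruvate kinase, 5 of 6 genes were at higher levels in Prx-cKO. Gapdh was at 528 and 815 CPM in WT and 1223 and 1442 in Prx-cKO, a log2 fold change of 0.99 (SE 0.26, p 0.0119 unadjusted and 0.424 adjusted, edgeR across all genes). The groups were apart, and with the look-alike reads added they still were, at 1929 and 2036 CPM against 3413 and 3831. Eno1, the main enolase, was at 724 and 894 CPM in WT and 1167 and 1540 in Prx-cKO (log2 fold change 0.74, SE 0.22, edgeR adjusted p 0.444). Pgk1, which makes the first ATP of the pathway, was at 394 and 445 against 544 and 670 CPM (0.53, SE 0.18, adjusted p 0.460). Pgam1, the mutase between them, was at 288 and 398 against 419 and 538 CPM, and Pkm, pyruvate kinase, at 1303 and 1595 against 1802 and 2393 CPM. In all 5 of these genes both Prx-cKO libraries were above both WT libraries, but in each of them except Gapdh the Prx-cKO libraries differed more from each other than the lower of them did from WT. The sixth, Eno2, the enolase typical of neurons, went the other way at a low level, with 5.78 and 3.45 CPM in WT and 2.26 and 2.07 in Prx-cKO (−1.08, SE 0.40, adjusted p 0.473).

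In the preparatory phase, Aldoa, the main aldolase, was at 318 CPM in both WT libraries and at 470 and 530 in Prx-cKO, a log2 fold change of 0.65 (SE 0.15, p 0.0069 unadjusted and 0.406 adjusted, edgeR). Gpi1, glucose phosphate isomerase, was at 207 and 208 against 221 and 309 CPM. Tpi1, triose phosphate isomerase, was at 359 and 409 against 430 and 572 CPM. Groups were apart in these 3 genes, but for Gpi1 and Tpi1, again, the 2 Prx-cKO libraries differed more from each other than the lower of them did from WT. Phosphofructokinase, the committed step, is encoded by 3 genes. Pfkm was at 77.2 and 75.7 against 87.6 and 93.9 CPM, while the groups overlapped for Pfkl (196 and 224 against 194 and 296). Pfkp was low, at 6.08 to 9.14 CPM. The 2 kinase-phosphatases that set fructose 2,6-bisphosphate, Pfkfb3 and Pfkfb4, overlapped between genotypes at 6.28 to 18.8 CPM, as did Aldoc at 3.08 to 4.60.

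Glucose entry did not share the pattern. Slc2a1, the common glucose transporter GLUT1, was at 99.5 and 100 CPM in WT and 90.2 and 102 in Prx-cKO. Slc2a3, the high-affinity transporter GLUT3, was at 156 and 206 CPM in WT but at 42.1 and 141 in Prx-cKO (−0.98, SE 0.55, edgeR adjusted p 0.589). The low value is from Prx-cKO replicate 1 alone. Of the hexokinases, which trap glucose in the cell, Hk1 overlapped between genotypes at 41.3 to 49.4 CPM and Hk2 was at 34.8 and 35.7 against 41.1 and 48.3 CPM. Hk3, the isozyme typical of myeloid cells, was at 0.354 and 0.362 CPM in WT and 1.67 and 1.21 in Prx-cKO (1.96, SE 0.48, p 0.00883 unadjusted and 0.414 adjusted). Summed CPM of the myeloid markers was 66.6 and 66.2 in WT limb and 141 and 130 in Prx-cKO, and all 13 tested were higher in Prx-cKO, led by C1qb and C1qc. The part of these cells in the Hk3 values was not tested.

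Lactate and pyruvate handling differed by gene. Ldha, the subunit that favours lactate formation, was at 665 and 745 CPM in WT and 864 and 1356 in Prx-cKO (0.65, SE 0.26, adjusted p 0.477). Ldhb, the subunit that favours lactate oxidation, was at 213 and 204 against 230 and 241 CPM, a log2 fold change of 0.18. Slc16a1, the lactate and pyruvate carrier MCT1, was at 72.7 and 69.6 against 75.8 and 94.0 CPM, and Slc16a3, the exporter MCT4, overlapped between genotypes at 29.9 to 46.2. Pdk1, the kinase that switches pyruvate dehydrogenase off, was lower, at 63.1 and 68.7 CPM in WT and 50.6 and 47.4 in Prx-cKO (−0.43, SE 0.15, p 0.035 unadjusted and 0.466 adjusted, edgeR).

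In the pentose phosphate branch the 3 oxidative genes were all at higher levels in Prx-cKO, with no overlap. G6pdx, the rate-limiting dehydrogenase, was at 44.2 and 53.6 CPM in WT and 56.3 and 68.2 in Prx-cKO. Pgls, the lactonase, was at 90.1 and 90.4 against 116 and 134 CPM (0.47, SE 0.15, p 0.0248 unadjusted and 0.452 adjusted). Pgd, the second NADPH-forming dehydrogenase, was at 161 and 154 against 196 and 221 CPM (0.40, SE 0.15, p 0.038 unadjusted and 0.469 adjusted). The sugar exchange enzymes were also apart, with Tkt at 285 and 330 against 365 and 519 CPM and Taldo1 at 125 and 142 against 161 and 183 CPM. The 2 genes that interconvert ribulose, ribose and xylulose phosphates overlapped between genotypes. Rpia, which forms ribose 5-phosphate, was at 27.4 and 19.5 against 21.1 and 19.8 CPM, and Rpe, the epimerase, at 33.4 and 44.0 against 36.4 and 38.0.

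Limits of the forelimb comparison rest on Prx-cKO replicate 2, which held the higher Prx-cKO value of most enzymes. Without it the glycolysis median fell to 0.14 and that of the pentose phosphate genes to 0.25. Without Prx-cKO replicate 1 they were 0.45 and 0.48, and the pentose phosphate median was 0.24 without WT replicate 1. The libraries also differed in makeup. Prx-cKO replicate 1 had a summed CPM of 1247 over 20 skeletal muscle markers, led by Actc1 and Myog, against 447 to 584 in the other 3 libraries. The limb mesenchyme markers summed to 1659 and 1682 CPM in Prx-cKO and 2077 and 2268 in WT, and 15 erythroid markers to 3861 to 5248 CPM in all 4. Summed CPM of 12 cell cycle genes was 3479 and 3962 in Prx-cKO and 2913 and 3413 in WT. The part of these lists in the differences above was not tested.

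The other genes of these pathways, taken from lists written from general knowledge but with earlier results of these data known, gave 0 calls by edgeR in the forelimb. Over all genes 0% were called and 10.5% had an unadjusted p under 0.05. Of 25 other glycolysis genes tested, 3 were higher and 2 lower at an unadjusted p under 0.05, with a median log2 fold change of −0.04. Of 9 other pentose phosphate and ribose genes, 2 were higher and 0 lower, with a median of 0.28. Of 13 genes of the pyruvate dehydrogenase complex and pyruvate import, 0 passed that value and the median was 0.12. Of 27 hypoxia-inducible factors and their non-glycolytic targets, 1 was higher and 2 lower, with a median of −0.04. No gene of these lists is named, since none was called.

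In the cultures the same genes were first compared between LysM-cKO and WT. Neither culture type gave a called member. At R40D3 edgeR called 0 of 32 members, where 0.0143% of the 14030 genes were called, and DESeq2 called 0. One member, Ldhb, had an unadjusted p under 0.05, against 7.46% of all genes. The median log2 fold change was −0.17 over the glycolysis genes (7 higher, 18 lower) and 0.06 over the pentose phosphate genes (6 higher, 1 lower), against −0.01 over all genes. The glycolysis median was 0.02 without LysM-cKO replicate 1, the library with the fewest osteoclast marker counts at R40D3, and −0.35 without LysM-cKO replicate 2. It was −0.07 without WT replicate 2. The pentose phosphate median ran from −0.04 without LysM-cKO replicate 2 to 0.17 without LysM-cKO replicate 1. These fits break a pair of same-numbered cultures, if the numbers pair them, which the labels do not state. Between same-numbered libraries the glycolysis median was −0.24 for number 1 and −0.11 for number 2, and the pentose phosphate median 0.015 and 0.11. Groups were apart for 2 members with LysM-cKO higher (19.7% of all genes) and for 3 with LysM-cKO lower (18.9% of all genes).

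Ldhb was at 93.2 and 123 CPM in WT R40D3 cultures and at 38.5 and 82.4 in LysM-cKO. The groups did not overlap, but the 2 LysM-cKO libraries differed from each other by more than the gap between the groups. The log2 fold change was −0.84 (SE 0.31, p 0.0293 unadjusted and 0.647 adjusted, edgeR). Ldha was at 354 and 438 against 283 and 352 CPM (−0.32, SE 0.18, adjusted p 0.667). Pdk1 was at 133 and 193 against 80.5 and 143 CPM, with overlap. Of the ribose branch, G6pdx was at 258 and 228 CPM in WT and 297 and 296 in LysM-cKO (0.29, SE 0.13, adjusted p 0.647), and Pgls at 67.5 and 75.5 against 54.8 and 66.8. Pfkm was the other member higher in both LysM-cKO libraries, at 17.1 and 19.0 against 19.6 and 21.6 CPM. All 17 osteoclast markers had a negative log2 fold change in the same contrast, with a median of −0.57, and 0 of them were called. Their part in the Ldhb and Pdk1 values was not tested.

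At R0D3 edgeR called 0 members of 32, again against 0.0143% of all genes, and DESeq2 called 0. One member, Pfkl, had an unadjusted p under 0.05, against 4.41% of all genes. Pfkl was at 49.5 and 54.2 CPM in WT versus 41.3 and 45.6 in LysM-cKO (−0.26, SE 0.09, p 0.0269 unadjusted and 0.997 adjusted). The median log2 fold change was 0.05 over the glycolysis genes (16 higher, 9 lower) and −0.03 over the pentose phosphate genes (1 higher, 6 lower). Between same-numbered libraries the glycolysis median differed in sign. It was −0.050 for number 1 (9 higher, 16 lower) and 0.16 for number 2 (17 higher, 8 lower). The pentose phosphate median was −0.066 and −0.0079. Groups were apart for 3 members with LysM-cKO higher (17.5% of all genes) and 4 with it lower (14.8% of all genes), among them Pgls at 54.7 and 57.7 against 46.7 and 52.6 CPM. Groups overlapped for the other members, for example Aldoa at 755 and 868 CPM in WT versus 724 and 885 in LysM-cKO. The largest value of many members was in LysM-cKO replicate 2, such as 450 CPM of Hk3 and 1127 of Pkm.

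Between R40D3 and R0D3 single isozymes changed by large factors while the medians of both pathways lay between −0.25 and 0.14 on the log2 scale. In WT cultures edgeR called 8 of 32 members, which is 6 higher and 2 lower at R40D3, where 16.9% of all genes were called, 11.4% higher and 5.51% lower. In LysM-cKO cultures it called 5, which is 3 higher and 2 lower, where 10.1% of all genes were called, 6.99% higher and 3.15% lower. Hk1, Ldhb and Pdk1 rose and Hk3 fell in both genotypes. In WT Aldoa, Aldoc and Eno1 also rose and G6pdx fell, and in LysM-cKO Pfkfb3 fell. Groups were apart in WT for 14 members with R40D3 higher and 11 with it lower (32.9% and 29.2% of all genes). In LysM-cKO they were apart for 9 and 10 members (27.3% and 22.5% of all genes). No member was called in the test of the difference between the genotypes. The median over the 25 glycolysis genes was 0.14 in WT and 0.10 in LysM-cKO, and over the 7 pentose phosphate genes −0.25 and −0.09, against 0.01 over all genes in each.

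**Figure D2:**
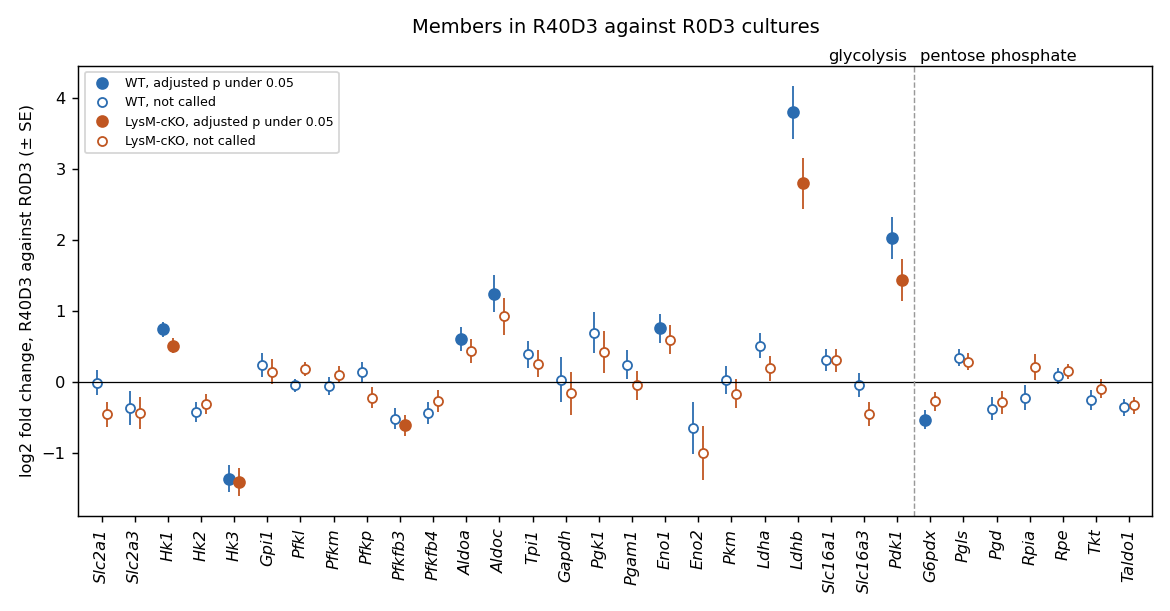
Log2 fold change of each member at R40D3 against R0D3 with its standard error, in WT (blue) and LysM-cKO (orange) cultures, with filled points for members called at an adjusted p under 0.05. Ldhb lies highest at 3.80 and 2.80, Pdk1 next at 2.03 and 1.44, and Hk3 lowest at −1.36 and −1.40.

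Replicate numbers were taken to pair the culture libraries, which the labels do not state, and blocking on this number gave more calls. It called 19 in WT, 11 higher and 8 lower, where 28.3% of all genes were called, and 13 in LysM-cKO, 8 higher and 5 lower, where 21.3% were called. In WT the added calls were Gpi1 (log2 fold change 0.25), Tpi1 (0.39), Pgk1 (0.69), Ldha (0.51) and Pgls (0.34), which rose, and Hk2 (−0.42), Pfkfb3 (−0.52), Pfkfb4 (−0.45), Pgd (−0.36), Tkt (−0.25) and Taldo1 (−0.35), which fell. With the block, the branch enzymes G6pdx, Pgd, Tkt and Taldo1 thus fell in WT while Pgls rose. In LysM-cKO the added calls were Aldoa (0.44), Aldoc (0.90), Pgk1 (0.42), Eno1 (0.60) and Pgls (0.29), which rose, and Slc2a1 (−0.44), Slc16a3 (−0.44) and Taldo1 (−0.32), which fell.

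Ldhb changed most. Its level was 7.57 and 7.89 CPM in WT and 7.87 and 9.45 in LysM-cKO at R0D3, and at 93.2 and 123 in WT and 38.5 and 82.4 in LysM-cKO at R40D3. All 4 R40D3 libraries were above all 4 R0D3 libraries. The log2 fold change was 3.80 in WT (SE 0.37, edgeR adjusted p 0.000993), a 14.0-fold rise, and 2.80 in LysM-cKO (SE 0.36, adjusted p 0.00463), a 6.97-fold rise. The difference between genotypes was tested as an interaction, which gave −1.0 for Ldhb (SE 0.50, p 0.0844 unadjusted, adjusted p 0.999938). Per kilobase of exon, Ldhb made up 5.39% to 6.53% of the lactate dehydrogenase transcripts at R0D3, 35.7% and 37.1% in WT at R40D3, and 22.3% and 33.1% in LysM-cKO at R40D3. Its share in the forelimb was 27.2% to 40.3%. Ldha stayed the larger part in all 12 libraries. It was at 262 and 292 CPM in WT at R0D3 and 354 and 438 at R40D3 (0.52, SE 0.18, adjusted p 0.092).

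**Figure D3:**
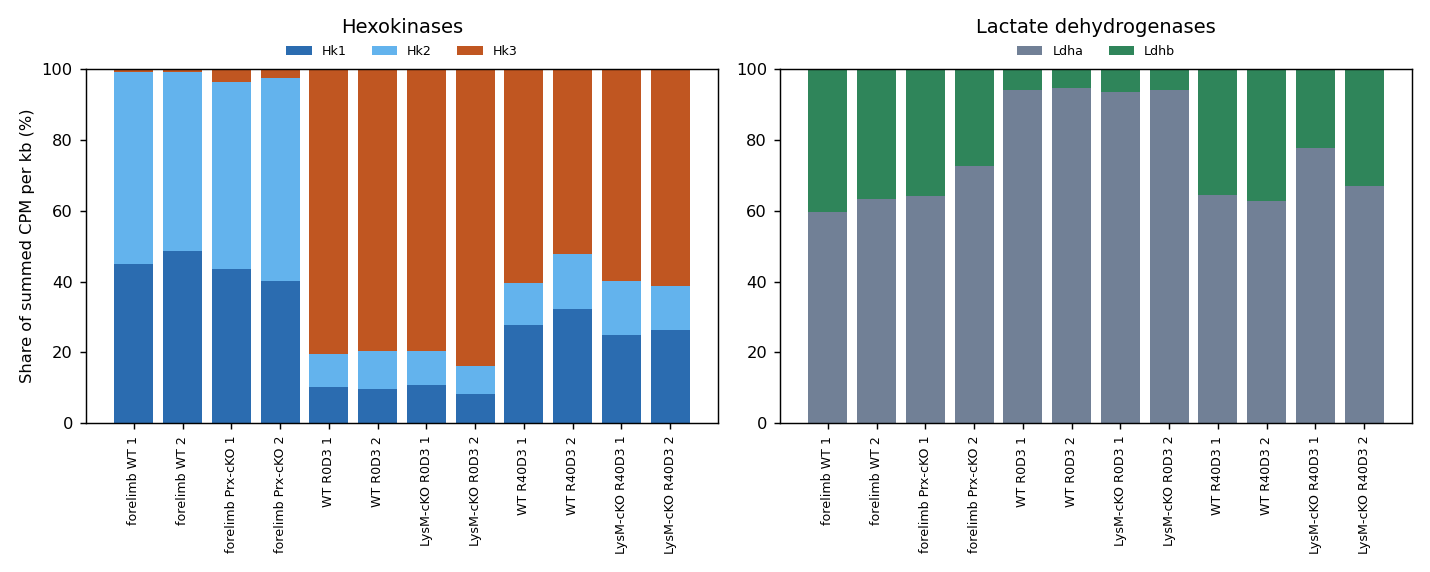
Share of each isozyme in the summed CPM per kilobase of its family, in percent, for the hexokinases (left) and the lactate dehydrogenases (right) in each of the 12 libraries. By this measure, which depends on the joined length of all annotated exons, Hk3 is the largest hexokinase part in the 8 culture libraries and under 4% in the forelimb. Ldhb is a small part only in the 4 R0D3 libraries. In CPM without division by length, Hk1 is above Hk3 in both WT R40D3 libraries.

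At R0D3 the Pdk1 level was 40.7 and 39.1 CPM in WT and 35.5 and 47.1 in LysM-cKO. At R40D3 it was at 133 and 193 in WT and 80.5 and 143 in LysM-cKO, so that again all 4 libraries were above the R0D3 values. The log2 fold change was 2.03 in WT (SE 0.30, edgeR adjusted p 0.00452) and 1.44 in LysM-cKO (SE 0.29, adjusted p 0.0239). The interaction was −0.59 (SE 0.41, p 0.188 unadjusted). In the forelimb, where most glycolysis genes were at higher levels in Prx-cKO, Pdk1 was among the few at lower levels.

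The hexokinases moved in opposite directions. Hk3 was at 323 and 325 CPM in WT and 301 and 450 in LysM-cKO at R0D3, and at 139 and 114 and at 133 and 151 at R40D3. It fell by 1.36 on the log2 scale in WT (SE 0.19, adjusted p 0.00394) and by 1.40 in LysM-cKO (SE 0.19, adjusted p 0.00564). Hk1, the widely expressed isozyme that binds mitochondria, rose from 94.8 and 90.4 to 148 and 163 CPM in WT (0.75, SE 0.11, adjusted p 0.00394). In LysM-cKO it rose from 94.4 and 101 to 128 and 151 CPM (0.52, SE 0.11, adjusted p 0.0236). Hk2, the inducible isozyme, was at 58.9 to 72.2 CPM at R0D3 and 45.2 to 54.4 at R40D3, without overlap in either genotype (WT −0.42, SE 0.14, adjusted p 0.0821). Groups were apart with R40D3 lower for 29.2% of all genes in WT and 22.5% in LysM-cKO. Per kilobase, Hk3 made up 79.6% to 83.9% of hexokinase transcripts at R0D3 and 52.3% to 61.1% at R40D3, and Hk1 8.11% to 10.8% and 24.97% to 32.3%. These shares depend on the length used, that of all annotated exons joined (8532 bases for Hk1, 3682 for Hk3). In CPM at R40D3, Hk1 was above Hk3 in both WT libraries (148 and 163 against 139 and 114). In LysM-cKO at R40D3 the 2 were close (128 and 151 against 133 and 151). At R0D3 Hk3 was above Hk1 in every library. Of the 14 myeloid markers in the same contrasts, 2 were called lower in WT and 1 in LysM-cKO, with medians of −0.27 and −0.22. Over all genes 5.51% and 3.15% were called lower.

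**Figure D4:**
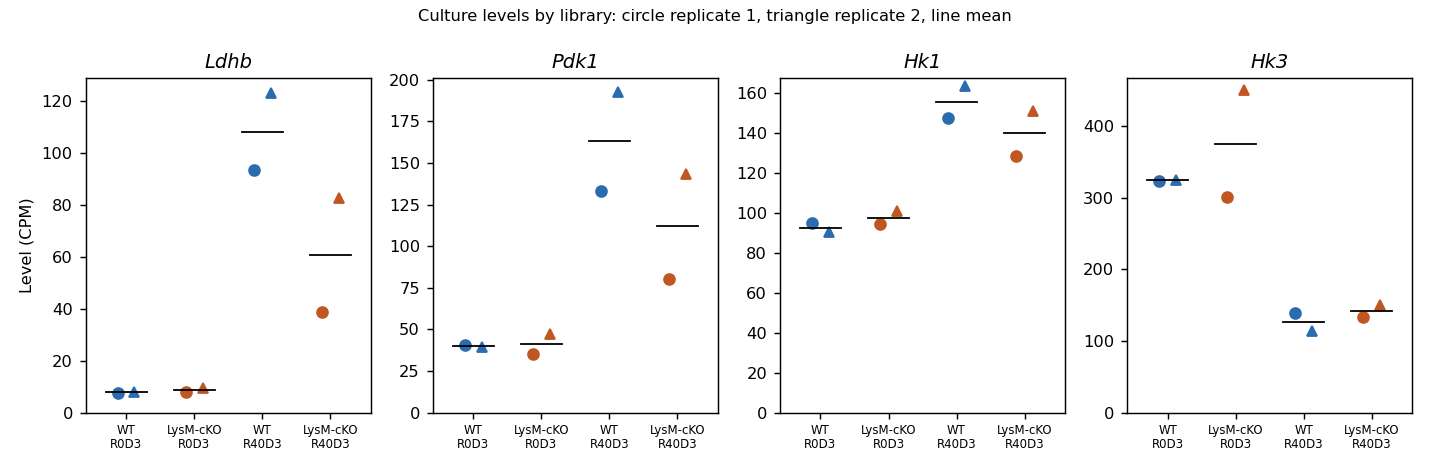
Levels of Ldhb, Pdk1, Hk1 and Hk3 in CPM in the 8 culture libraries by group, with circles for replicate 1, triangles for replicate 2 and lines for group means, on axes that start at 0. In each panel the 4 R40D3 libraries are separate from the 4 R0D3 libraries, above for Ldhb, Pdk1 and Hk1 and below for Hk3.

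Promoter sequences are shown for the 4 genes called in both genotypes, and for Ldha beside Ldhb, because isozymes and neighbouring steps of 1 pathway changed in different directions. Glycolytic genes are textbook targets of the hypoxia-inducible factors, whose response element has the core ACGTG or GCGTG. RefSeq windows on GRCm38.p6, from 250 bases before to 50 after an annotated start, were found for 31 of the 32 members. Capitals mark ACGTG and GCGTG on either strand, read 5′ to 3′ along the gene.
Ldhb, chr6:142507908-142508207, minus strand: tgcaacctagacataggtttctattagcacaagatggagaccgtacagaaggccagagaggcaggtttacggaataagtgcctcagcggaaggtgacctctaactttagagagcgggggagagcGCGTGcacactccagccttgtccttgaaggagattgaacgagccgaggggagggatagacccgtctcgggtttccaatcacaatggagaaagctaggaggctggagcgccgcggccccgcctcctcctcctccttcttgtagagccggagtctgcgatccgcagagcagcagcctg
Ldha, chr7:46845554-46845853, plus strand: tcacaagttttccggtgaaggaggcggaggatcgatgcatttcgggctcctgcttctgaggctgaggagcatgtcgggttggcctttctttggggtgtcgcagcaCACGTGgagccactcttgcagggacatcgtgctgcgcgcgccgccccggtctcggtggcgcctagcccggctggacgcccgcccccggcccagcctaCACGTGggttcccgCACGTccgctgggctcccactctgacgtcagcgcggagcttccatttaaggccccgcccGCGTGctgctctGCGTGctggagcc
Pdk1, chr2:71872974-71873273, plus strand: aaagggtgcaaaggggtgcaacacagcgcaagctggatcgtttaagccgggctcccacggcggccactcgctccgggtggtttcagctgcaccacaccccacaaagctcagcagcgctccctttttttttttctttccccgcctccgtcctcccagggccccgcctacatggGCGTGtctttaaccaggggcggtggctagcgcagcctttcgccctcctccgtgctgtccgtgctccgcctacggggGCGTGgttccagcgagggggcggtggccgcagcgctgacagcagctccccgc
Hk1, chr10:62379859-62380158, minus strand: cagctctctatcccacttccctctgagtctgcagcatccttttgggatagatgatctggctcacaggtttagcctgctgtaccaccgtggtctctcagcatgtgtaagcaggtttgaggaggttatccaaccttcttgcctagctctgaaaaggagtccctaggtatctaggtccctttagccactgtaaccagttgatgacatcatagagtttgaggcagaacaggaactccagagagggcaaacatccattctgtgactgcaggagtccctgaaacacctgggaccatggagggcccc
Hk3, chr13:55021336-55021635, minus strand: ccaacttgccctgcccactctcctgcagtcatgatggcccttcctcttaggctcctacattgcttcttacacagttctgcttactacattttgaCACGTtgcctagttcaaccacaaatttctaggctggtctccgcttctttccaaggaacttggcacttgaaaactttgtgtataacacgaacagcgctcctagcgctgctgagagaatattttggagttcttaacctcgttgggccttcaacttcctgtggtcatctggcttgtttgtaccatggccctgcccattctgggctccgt
The Ldha window held 5 matches to ACGTG, of which 4 came from 2 copies of the palindrome CACGTG, which matches on both strands, and 2 to GCGTG. That of Pdk1 held 2 to GCGTG, that of Ldhb 1 to GCGTG, that of Hk3 1 to ACGTG and that of Hk1 none. Over all 32851 windows of this length in the table, 19.6% held ACGTG, 32.4% held GCGTG and 43.8% held one or the other. Of the 45 windows of the 31 members, 35 held one or the other. The Hk1 window is at the outermost of 2 starts in the table, and that of Ldha 4329 bases from the outermost GENCODE start. A match describes letters in these windows, not a site in use.

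Upper and lower glycolysis rose in WT at single steps. Aldoa was at 755 and 868 CPM at R0D3 and 1132 and 1333 at R40D3 (0.60, SE 0.17, edgeR adjusted p 0.0492). Aldoc, the aldolase typical of brain, went from 20.8 and 20.6 to 38.6 and 60.0 CPM (1.25, SE 0.26, adjusted p 0.0173). Eno1 went from 145 and 189 to 252 and 312 CPM (0.76, SE 0.21, adjusted p 0.0435). In LysM-cKO the values were 724 and 885 against 963 and 1223 CPM for Aldoa (0.44, adjusted p 0.161), 21.3 and 21.0 against 31.1 and 49.6 for Aldoc (0.93, adjusted p 0.0689) and 133 and 177 against 204 and 265 for Eno1 (0.60, adjusted p 0.123). All 3 were without overlap in both genotypes, where groups were apart with R40D3 higher for 32.9% of all genes in WT and 27.3% in LysM-cKO. Pfkfb3 was at 80.2 and 80.0 CPM against 62.0 and 50.3 in WT (−0.51, adjusted p 0.0516) and fell from 86.2 and 92.5 to 66.0 and 51.0 in LysM-cKO (−0.61, SE 0.15, adjusted p 0.0403). Groups overlapped for Pkm, at 771 and 897 CPM at R0D3 and 811 and 895 at R40D3 in WT, and for Slc2a1, at 35.7 and 41.8 against 36.5 and 40.8.

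In the ribose branch, G6pdx fell from 329 and 371 CPM to 258 and 228 in WT (−0.53, SE 0.13, edgeR adjusted p 0.0342). In LysM-cKO it was at 314 and 398 against 297 and 296 CPM (−0.27, adjusted p 0.280). Pgd was at 723 and 910 against 615 and 648 CPM in WT, and Taldo1 at 536 and 627 against 449 and 462 in WT and 528 and 630 against 441 and 483 in LysM-cKO. Tkt was at 358 and 423 against 315 and 341 CPM in WT. In LysM-cKO the groups overlapped for Pgd (697 and 905 against 622 and 698 CPM) and for Tkt (326 and 408 against 326 and 364). Pgls went the other way, from 54.7 and 57.7 to 67.5 and 75.5 CPM in WT. Rpia and Rpe, at 12.1 to 17.5 and 40.7 to 51.5 CPM in the 8 culture libraries, were called in neither genotype. Cell cycle genes were also at lower levels at R40D3. All 12 had negative log2 fold changes in each genotype, with medians of −0.59 and −0.84 and 1 called in each, where 5.51% and 3.15% of all genes were called lower. In LysM-cKO against WT these 12 genes went the other way, with 0 called. At R0D3 12 were higher (median 0.94) and at R40D3 10 were higher and 2 lower (median 0.76). The pentose phosphate medians in those contrasts were −0.03 and 0.06. The part of the cell cycle genes in the values of the branch was not tested.

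Calls in these contrasts depended on single libraries. Those of Hk1 and Aldoc in WT, and of Hk1, Pdk1 and Pfkfb3 in LysM-cKO, were lost in some fits without 1 library. In LysM-cKO the log2 fold change over these fits ran from 0.93 to 1.80 for Pdk1 and 0.36 to 0.63 for Hk1. For Pfkfb3 it ran from −0.81 to −0.47. In WT it ran from 0.86 to 1.51 for Aldoc and 0.63 to 0.79 for Hk1. Ldhb and Hk3 were called in each genotype whichever of the 4 compared libraries was left out, and Pdk1 in WT. In WT, leaving out R40D3 replicate 2 left 3 calls, leaving out either R0D3 replicate left 4, and leaving out R40D3 replicate 1 gave 6. The share of all genes called moved too, to 5.09%, to 5.75% and 5.86%, and to 12.2%. In LysM-cKO, leaving out R40D3 replicate 2 or either R0D3 replicate left 2 calls, and leaving out R40D3 replicate 1 gave 6, where 2.91% to 9.39% of all genes were called. In WT the calls of Aldoa, Eno1 and G6pdx were lost in each of these fits.

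The interaction of genotype and culture type asks whether the R40D3 difference was larger in one genotype. EdgeR called 0 members, against 0% of all genes, and 0 members had an unadjusted p under 0.05, against 1.76% of all genes. DESeq2 called 0 as well. The log2 difference was negative for 21 of 25 glycolysis genes, with a median of −0.19, and positive for 6 of 7 pentose phosphate genes, with a median of 0.09. Within the replicate numbers, taken to pair the cultures, the glycolysis median was −0.18 and −0.19 for numbers 1 and 2. That of the pentose phosphate genes was 0.068 and 0.14. In the fit without LysM-cKO R0D3 replicate 2, which breaks such a pair, the glycolysis median was 0.038.

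Genes next to the members in metabolism were also compared between R40D3 and R0D3. Over all genes, 16.9% were called in WT (11.4% higher, 5.51% lower) and 10.1% in LysM-cKO (6.99% higher, 3.15% lower). Of 13 genes of the pyruvate dehydrogenase complex and pyruvate import, 8 rose and 1 fell in WT (median log2 fold change 1.05) and 6 rose in LysM-cKO (median 0.68). In WT the 3 smallest p belonged to Pdk3, a second pyruvate dehydrogenase kinase (2.26, SE 0.15, edgeR adjusted p 0.000274), Mpc2, a subunit of the mitochondrial pyruvate carrier (1.89, SE 0.18, adjusted p 0.000893), and Dld, the lipoamide dehydrogenase of the complex (1.124, SE 0.12, adjusted p 0.00128). The same 3 genes had the smallest p in LysM-cKO, at 1.86, 1.57 and 0.86. Of 19 other glycolysis genes tested, 8 rose in WT and 4 in LysM-cKO, and 0 fell. Ldhd, the mitochondrial D-lactate dehydrogenase, rose by 2.97 in WT (SE 0.29, adjusted p 0.00104) and 2.68 in LysM-cKO (SE 0.35, adjusted p 0.00487). Galm, which interconverts the forms of glucose and galactose, rose by 1.11 and 0.88, and Slc16a7, the carrier MCT2, by 0.72 and 0.73. Of 9 other pentose phosphate and ribose genes, H6pd, the dehydrogenase of the endoplasmic reticulum, rose by 0.63 and 0.41, and Pgm2 by 0.46 and 0.41. Of 26 hypoxia-inducible factors and non-glycolytic targets, 3 rose and 3 fell in WT, and 1 rose and 3 fell in LysM-cKO. Bhlhe40, a transcriptional repressor, rose by 2.52 and 2.04, Epas1, which encodes HIF-2α, fell by 1.25 and 1.23, and Ndrg1 fell by 1.20 and 1.04. Between genotypes 0 genes of these 4 lists were called by edgeR in either culture type, against 0.0143% of all genes in each. At R40D3, the counts at an unadjusted p under 0.05 were 1 of 19, 0 of 9, 2 of 13 and 1 of 26, and at R0D3 0, 0, 0 and 1. Over all genes the shares under that value were 7.46% at R40D3 and 4.41% at R0D3.

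The members were also ordered by level per kilobase of exon, leaving Gapdh aside. Length was that of all annotated exons of a gene joined, and the order depends on this choice. In WT forelimb, Pkm was highest at a mean of 290 CPM per kilobase, followed by Ldha at 213, Pgk1 at 187 and Pgam1 at 173, and the highest pentose phosphate gene was Taldo1 at 61.5. In WT R0D3 cultures, Aldoa and Taldo1 were highest, at 279 and 268, followed by Pkm at 167, Pgd at 127 and G6pdx at 114. In WT R40D3 cultures, Aldoa was at 423 and Taldo1 at 210. Of the 5 highest members in R0D3 cultures 3 were thus pentose phosphate genes, against 0 of the 5 highest in the forelimb. The 5 in the forelimb included Pgk1, Pgam1 and Eno1, which have look-alikes, while Taldo1, Pgd and G6pdx have none. Pgk1, Pgam1 and Eno1 were at 187, 173 and 150 CPM per kilobase in WT forelimb and 19.9, 34.7 and 31.0 in WT R0D3. The part of read assignment in this contrast was not tested. The forelimb and culture tables list different sets of gene identifiers, and whether Pgk1, Pgam1 and Eno1 lost reads to look-alikes is not known. These orders are therefore set side by side without a test.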

How the data were processed

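The authors deposited unnormalised whole-number counts for each Ensembl gene, in 1 forelimb table and 2 culture tables. Libraries were made with an mRNA kit from TRIzol RNA, per the labels' protocols. The submitters' processing notes name FastQC 0.11.2, Trimmomatic 0.36, HISAT2 2.1.0, DESeq2 1.12.4 and GRCm38. How reads were assigned to genes (tool, annotation, strand) is not given in the sources used here. Counts were filtered with filterByExpr, scaled by TMM and fitted with the quasi-likelihood test of edgeR 4.0.16 (legacy = FALSE), two-sided, with Benjamini-Hochberg adjustment over all genes tested and a threshold of 0.05. One fit held the 4 forelimb libraries and another the 8 culture libraries. In every group the 2 replicates differed beyond sampling noise (chi-square per degree of freedom 10.7 to 131). Symbols, exonic lengths and positions came from GENCODE M21, and look-alike genes from BLAST 2.17.0. The symbol Aldoa has a second identifier with 1 to 8 counts per culture library, which was not used.

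The members and lists were chosen with earlier results of these data known. The text names all 32 members and Impdh2, and from each other list at most the 3 called genes with the smallest p. Alternatives were RLE factors, library size alone, no filter, the legacy fit, DESeq2 1.42.0, the replicate block, only the compared libraries and leaving out each library, and, added after the data were seen, look-alike reads added to their gene. The pipeline was tested on simulated data. In the cultures, libraries with the same number deviated together from their group means in all 6 pairs of groups (r across genes 0.343 to 0.609), so the numbers were taken to pair the cultures. The labels do not state this pairing, and the replicate numbers were also deposited as separate sets of counts.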

Additional observations from a re-analysis of the deposited data

Results flagged for a closer look

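Between Prx-cKO forelimb and LysM-cKO R40D3 cultures, 3 members had groups apart in opposite directions from their WT, a difference that was not tested. The log2 fold change against WT was 0.65 in forelimb and −0.32 at R40D3 for Ldha, 0.18 and −0.84 for Ldhb, and 0.47 and −0.23 for Pgls. Between forelimb and R0D3 cultures the same held, also untested, for Slc16a1 (0.25 and −0.14) and Pgls (0.47 and −0.18). None of these 5 genotype differences in culture or forelimb was called by edgeR over all genes. Over all genes, groups were apart for 22.2% with Prx-cKO higher and 21% with it lower in the forelimb. For LysM-cKO higher and lower, these shares were 19.7% and 18.9% at R40D3 and 17.5% and 14.8% at R0D3. How many of all genes were apart in opposite directions was not counted. For Ldha at R40D3 the nearest values were 354 CPM in WT and 352 in LysM-cKO.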

How the results depend on the processing

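With 2 libraries a group, single libraries moved the medians. With each compared library left out in turn, the glycolysis median ran from 0.14 to 0.45 in the forelimb, −0.35 to 0.020 between genotypes at R40D3, −0.16 to 0.19 at R0D3, 0.078 to 0.35 for R40D3 against R0D3 in WT, −0.0603 to 0.26 in LysM-cKO and −0.36 to 0.038 for the interaction. The pentose phosphate median ran from 0.24 to 0.48 in the forelimb, −0.04 to 0.17 at R40D3, −0.23 to 0.064 at R0D3, −0.38 to −0.13 in WT, −0.24 to 0.080 in LysM-cKO and −0.0039 to 0.29 for the interaction. Members called ran from 3 to 6 in WT and 2 to 6 in LysM-cKO, and were 0 in the other contrasts. A lone library of a group was assumed to vary like the others.

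With the replicate block the members called were 19 in WT and 13 in LysM-cKO, and 0 in the genotype contrasts and the interaction. In the forelimb the numbers share only a number (r 0.261 across genes), and the block gave 0 calls there. DESeq2 called 2 members in the forelimb. With only the 4 compared libraries, 2 were called in LysM-cKO, Hk3 and Ldhb, where 3.24% of all genes were called. Aldoa in WT was no longer called with RLE factors or without a filter (adjusted p up to 0.0668), and Eno1 without a filter (adjusted p 0.0682) or with look-alike reads added, an alternative chosen after the data were seen. The cause was not tested. Over 2368 refits of 192 member contrasts, 155 changed sign, 138 of them with 1 library left out, and all in members that were not called.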
